A study of Mus musculus with 6 samples.

Results

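Fibroblast growth factor (FGF) ligands of the pharyngeal arch were compared between Tbx1 null and wild-type mouse embryos. The ligands are 8 genes, Fgf3, Fgf4, Fgf8, Fgf9, Fgf10, Fgf15, Fgf17 and Fgf18, out of 19938 genes measured. Each was represented by the only probe set that the platform annotation gives to that symbol alone, so all 8 were measured and none was removed by a filter. The tissue was the mandibular portion of the first pharyngeal arch (MdPA1), which forms the lower jaw, at embryonic day 9.5 on a C57BL/6 background. RNA came from embryos homozygous for a Tbx1 null allele (Tbx1-/-, 3 arrays, called Tbx1 null) and from their wild-type counterparts (Tbx1+/+, 3 arrays). Arches of 3 embryos per genotype were pooled for RNA, and whether each array had a pool of its own is not stated. A p-value here is set against array-to-array variation, part of which may be technical. Deposited values are log2 levels, and a log2 change is Tbx1 null minus wild type.

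FGF ligands are secreted proteins that bind heparan sulfate and FGF receptor tyrosine kinases on nearby cells. Receptor activation runs largely through the RAS and ERK kinases, which switch on ETS-family transcription factors and feedback inhibitors of the Sprouty and DUSP families. In the pharyngeal arches the overlying ectoderm and the endoderm are the main sources of several ligands, whereas Fgf10 is made by mesoderm and mesenchyme. FGF8 from the epithelium is required in mice for survival and patterning of the jaw mesenchyme, and Tbx1 and Fgf8 interact genetically in the mouse pharynx. The comparison asks which of these ligand transcripts differ when Tbx1, a T-box transcription factor of the same tissues, is lacking.

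The labels were checked first on the targeted gene. Tbx1 stood at 9.48, 9.39 and 9.63 on the Tbx1 null arrays, against 11.64, 11.36 and 11.31 on the wild-type arrays (log2 change -1.94, limma adjusted p = 0.000684). All 13 markers of mandibular crest mesenchyme were measured, with a mean log2 level of 11.51 to 11.63 on the Tbx1 null arrays and 11.27 to 11.48 on the wild-type arrays, so the tissue's own markers were present in both genotypes. They were not equal, since 6 of 13 lay higher in Tbx1 null at an unadjusted limma p under 0.05 and 0 lay lower. That is 46.2%, against 5.5% of all genes higher at that p, and 0 passed the adjusted threshold. The 3 measured Y-linked genes set Tbx1 null replicate 3 apart, with a mean log2 level of 5.73 there against 9.58 and 9.28 on the other Tbx1 null arrays and 8.57 to 9.85 in wild type. The arrays of Tbx1 null therefore did not all carry RNA of 1 pool. Wild-type arrays also differed in these genes, at 8.57, 9.07 and 9.85 on replicates 1, 2 and 3. Whether those carried 1 pool was not tested. Without Tbx1 null replicate 3 no ligand passed the adjusted threshold either, and changes without it are given at Fgf4, Fgf9, Fgf10, Fgf15 and Fgf17. The precision is set by the number of arrays, since no read depth exists for them.

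No FGF ligand passed the limma adjusted p threshold of 0.05 over all genes, which 0.16% of genes passed (0.0853% higher and 0.0752% lower in Tbx1 null). The smallest log2 change among the genes that passed was 0.365 in size, larger than that of any ligand. No gene with a change of ligand size passed in this fit. At an unadjusted limma p under 0.05 there were 2 of the 8 ligands (25%), Fgf15 on the higher side and Fgf10 on the lower side in Tbx1 null, where 9.44% of all genes lay (5.5% higher and 3.94% lower). The arrays of the genotypes did not overlap for 3 of the 8 ligands (37.5%), Fgf15, Fgf18 and Fgf10, against 15.4% of all genes (8.36% higher and 7.06% lower). The remaining 5 ligands, Fgf3, Fgf4, Fgf8, Fgf9 and Fgf17, had overlapping arrays and log2 changes between -0.05 and 0.08. The median log2 change over the 8 ligands was 0.02, and over all genes it was -0.01. An exact two-sided permutation test of 3 against 3 arrays cannot go below p = 0.1, the value it gave for Fgf10, Fgf15 and Fgf18.

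**Figure D1:**
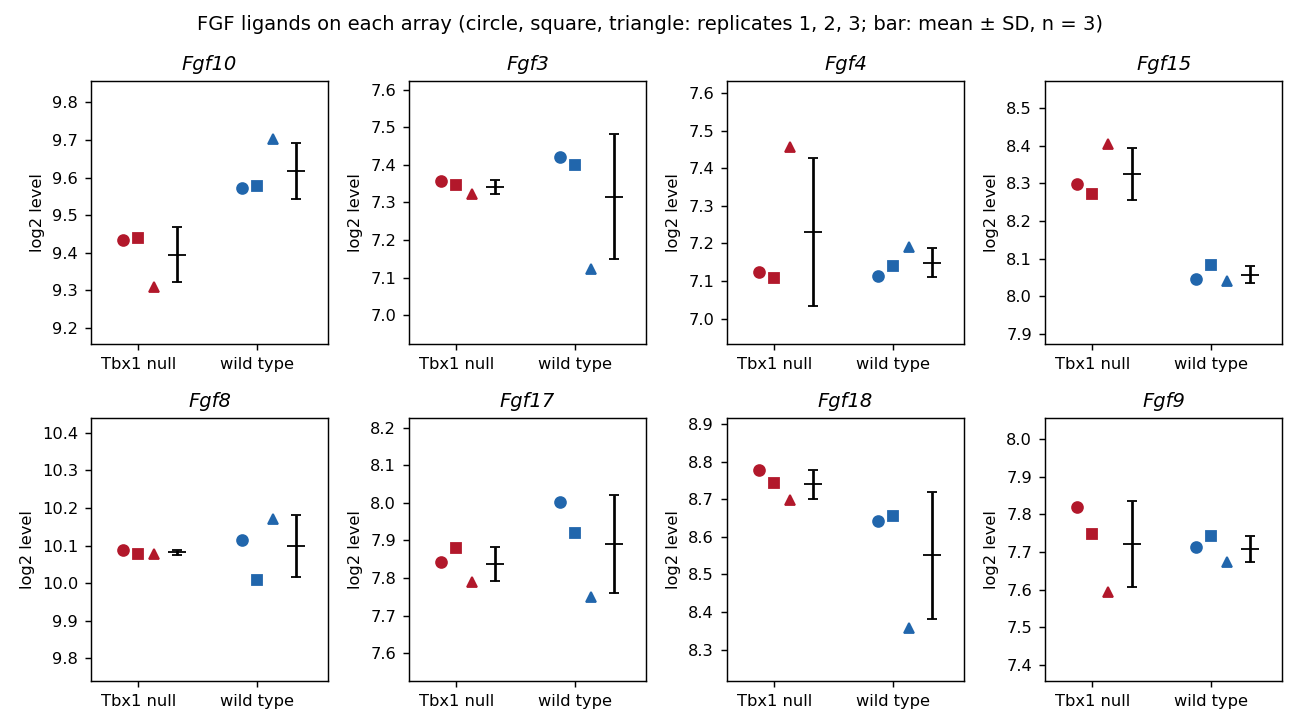
Log2 level of the 8 FGF ligand genes on each array, 1 panel per gene, with Tbx1 null (red) left of wild type (blue); every y axis spans the same log2 range but starts at its own level, and bars are mean ± SD over 3 arrays. Fgf10 lies lower on every Tbx1 null array, Fgf15 and Fgf18 lie higher on every one, and the other panels overlap.

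Fgf10, the mesodermal and mesenchymal ligand that signals through the epithelial form of FGF receptor 2 and marks the second heart field, had log2 levels of 9.43, 9.44 and 9.31 on the Tbx1 null arrays, against 9.57, 9.58 and 9.70 on the wild-type arrays. Every Tbx1 null array lay below every wild-type array, and the replicates of number 3 were the extremes on both sides. The log2 change was -0.22 (SE 0.06, 95% confidence interval -0.36 to -0.09), a level 1.17-fold lower in Tbx1 null. The limma adjusted p was 0.261, and the interval reaches from 1.28-fold lower to 1.06-fold lower. In RNA from a whole arch, fewer cells of a type and less RNA per cell cannot be told apart.

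Core mesoderm markers, genes of the arch's muscle progenitors, were lower on the same arrays. Their mean log2 level was 8.90 to 9.05 in Tbx1 null and 9.39 to 9.45 in wild type, and 7 of 8 measured markers lay below 0. At an unadjusted limma p under 0.05, 5 of 8 lay lower (3.94% of all genes) and 1 higher (5.5% of all genes). The higher one, Ebf3, had a log2 change of 0.32 without overlap (limma adjusted p = 0.439). Lhx2, a LIM-homeodomain factor, fell by 1.56 (limma adjusted p = 0.000784) and was the only one of the 8 past the adjusted threshold. Tcf21, a bHLH factor of the muscle progenitors, had a log2 change of -0.53 and Myf5, a myogenic regulatory factor, of -0.66 (adjusted p = 0.324 and 0.0509). Heart field and cardiac muscle markers went the other way. Their mean log2 level was 9.14 to 9.48 in Tbx1 null against 8.80 to 8.998 in wild type, with 9 of 11 markers above 0. At an unadjusted limma p under 0.05, 7 of 11 lay higher (63.6%, against 5.5% of all genes) and 0 lower. Hand2 is among these 7 and also among the 6 higher crest mesenchyme markers, so the counts share that gene. Tbx20, a cardiac T-box factor, was the 1 marker past the adjusted threshold, higher by 0.68 on the log2 scale (limma adjusted p = 0.0422). The cardiac muscle markers Actc1 and Myl7 had larger log2 changes of 1.40 and 0.84, without overlap (limma adjusted p = 0.163 and 0.148). Isl1, a factor of the second heart field, had a log2 change of 0.36 (adjusted p = 0.279). The part of these cells in the Fgf10 difference was not tested.

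The RefSeq promoter table (GRCm38.p6) held 5 of the 8 ligands: Fgf3, Fgf4, Fgf9, Fgf10 and Fgf18. The 250 bases before the transcription start are shown for Fgf10 and Fgf18, the ligands of that table whose arrays did not overlap between genotypes and whose changes had opposite signs. Fgf10 is on the plus strand (chr13:118714449-118714698) and Fgf18 on the minus strand (chr11:33147401-33147650). Capitals mark the GC box GGGCGG, read on either strand.
Fgf10: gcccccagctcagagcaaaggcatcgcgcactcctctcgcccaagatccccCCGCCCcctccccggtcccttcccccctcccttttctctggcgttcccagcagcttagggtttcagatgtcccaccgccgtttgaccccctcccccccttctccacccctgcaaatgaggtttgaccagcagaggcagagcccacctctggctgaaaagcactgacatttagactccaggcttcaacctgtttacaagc
Fgf18: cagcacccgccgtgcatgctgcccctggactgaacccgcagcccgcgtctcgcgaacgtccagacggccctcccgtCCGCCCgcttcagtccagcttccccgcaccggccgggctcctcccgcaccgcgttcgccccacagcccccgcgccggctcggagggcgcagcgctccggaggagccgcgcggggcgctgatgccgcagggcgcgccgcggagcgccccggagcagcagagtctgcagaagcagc
The T-box core GGTGTG was searched on both strands and found in none of the 5 windows, while 16.3% of 32841 promoter windows of the same length held it. The letters CCGGAA, used for the ETS core and present in 12% of all windows, were not found in these 5 either. The same held for the letters TATAAA, used for the TATA box and present in 12.4%. Shorter or variant forms of the motifs were not searched, and the Fgf4 window holds the related run TATATATA. The GC box, present in 32.7% of all windows, was found in Fgf4, Fgf10 and Fgf18, and the motifs searched do not overlap in these sequences. The Fgf18 window has 77.2% G and C with 37 CpG pairs and the Fgf10 window 61.2% with 8, where the median window has 52.4% and 6. A letter match describes the sequence and does not show a bound site.

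Fgf15, the mouse counterpart of human FGF19, is made in pharyngeal epithelium and neural tissue of the embryo and is needed for alignment of the cardiac outflow tract in mice. Its log2 levels were 8.30, 8.27 and 8.40 on the Tbx1 null arrays, against 8.05, 8.08 and 8.04 on the wild-type arrays. The genotypes did not overlap, and the gap between them exceeded the range within either genotype. The log2 change was 0.27 (SE 0.05, 95% confidence interval 0.15 to 0.38), 1.204-fold higher in Tbx1 null, with a limma adjusted p = 0.123. With limma array weights, which gave Tbx1 null replicate 3 and wild type replicates 1 and 3 weights of 0.532, 0.506 and 0.413 and wild type replicate 2 a weight of 3.003, the change was 0.23 and the adjusted p 0.0348. That was the only setting in which any ligand passed, and with these weights 334 genes passed in all.

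Markers of tissues that can carry Fgf15 are given beside it. Pharyngeal endoderm markers had a mean log2 level of 10.10 to 10.32 in Tbx1 null and 10.04 to 10.18 in wild type, with 9 of 12 above 0, none past the adjusted threshold and 3 higher at an unadjusted limma p under 0.05 (Nkx2-3, Krt8 and Krt18; 25%, against 5.5% of all genes). Foxa2 and Shh, the endoderm's transcription factor and its Hedgehog ligand, had log2 changes of 0.08 and 0.03. Oral and surface ectoderm markers had a mean log2 level of 9.54 to 9.65 in Tbx1 null against 9.44 to 9.46 in wild type, with 8 of 9 above 0. Of these, 3 lay higher at an unadjusted limma p under 0.05 (33.3%, against 5.5% of all genes): the keratin gene Krt14 with a log2 change of 0.43, Pitx1 with 0.33 and the p63 gene Trp63 with 0.23. Neural tube and cranial neuron markers were on the other side, at 8.02 to 8.05 in Tbx1 null against 8.11 to 8.21 in wild type. Of 13 measured, 3 lay lower (En2, Pax6 and Gbx2) and 1 higher (Dcx) at that p, 30.8% against 9.44% of all genes. None of the 3 lists had a gene past the adjusted threshold, and their part in the Fgf15 difference was not tested.

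Lists of other cells the dissection could hold were read on the same arrays. Primitive erythroid markers, genes of the first blood cells, had a mean log2 level of 10.30 to 10.35 in Tbx1 null and 10.59 to 10.67 in wild type. All 8 measured were lower at an unadjusted limma p under 0.05, where 3.94% of all genes lay, and 0 passed the adjusted threshold. Otic epithelium markers stood at 8.98 to 9.10 in Tbx1 null and 8.91 to 8.98 in wild type. Of 8 measured, 2 lay higher (Pax8 and Hmx3, log2 changes of 0.79 and 0.15) and 1 lower (Gbx2, -0.41) at that p. That is 37.5%, against 9.44% of all genes, and 0 passed the adjusted threshold. Endothelial markers stood at 10.45 to 10.66 in Tbx1 null and 10.58 to 10.61 in wild type, with 0 of 8 at that p. Hox genes, usually silent in the mandibular arch, stood at 7.57 to 7.67 in Tbx1 null and 7.39 to 7.48 in wild type. Of 9 measured, 2 lay higher (5.5% of all genes) and 1 lower (3.94% of all genes) at an unadjusted limma p under 0.05, with 6 above 0 and 3 below. Hoxa2, which specifies second-arch identity, had a log2 change of 1.11 and Hoxb2 of 0.63 (limma adjusted p = 0.126 and 0.0577), while the lower one, Hoxd4, had -0.14 (adjusted p = 0.505). The part of such cells in the ligand values was not tested.

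**Figure D2:**
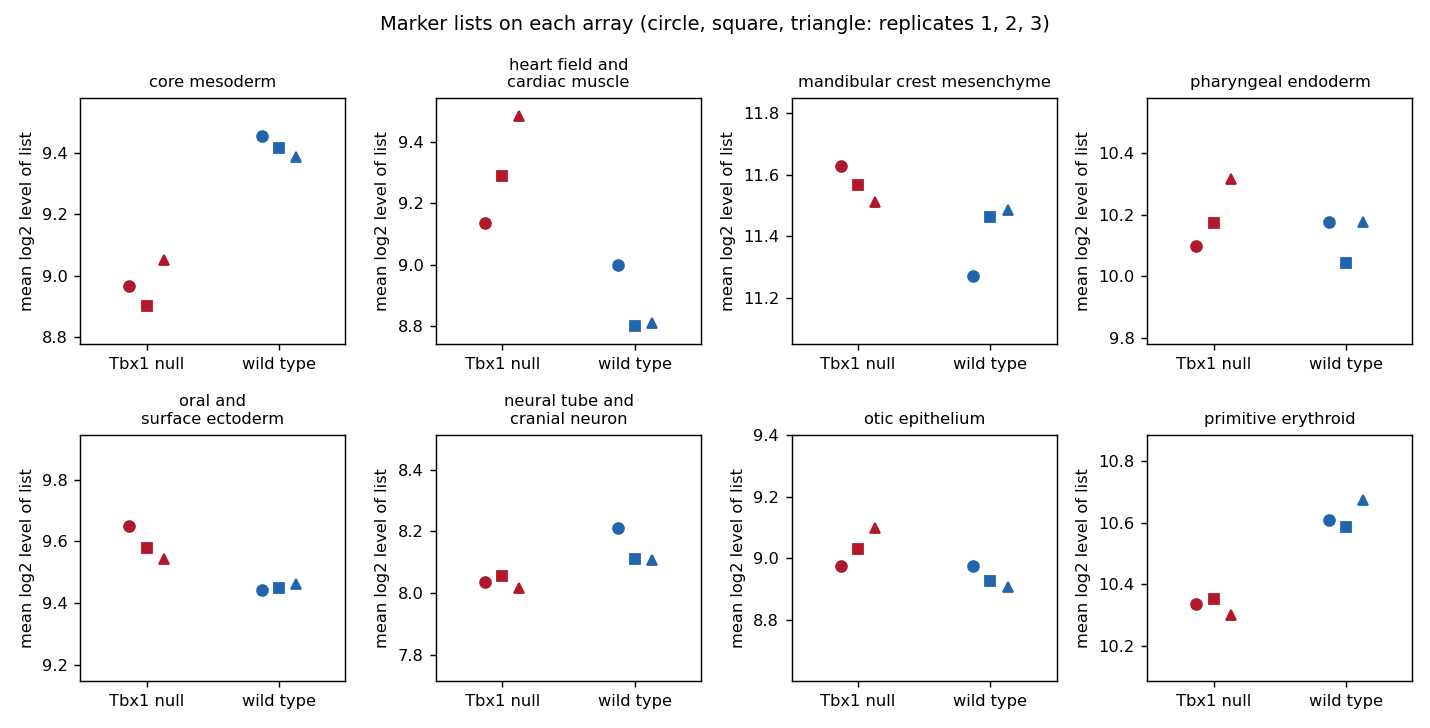
Mean log2 level of 8 marker lists on each array, with Tbx1 null (red) left of wild type (blue); every y axis spans the same log2 range. Core mesoderm, neural and erythroid lists lie lower on every Tbx1 null array, heart, crest mesenchyme and ectoderm lists lie higher on every one, and the pharyngeal endoderm and otic lists overlap.

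Fgf15 lies beside Fgf4 and Fgf3 on chromosome 7, with no other protein-coding gene between them in the RefSeq gene table. Both neighbours had overlapping arrays. Fgf4, a ligand of the early embryo and the limb ridge, was at 7.13, 7.11 and 7.46 in Tbx1 null, against 7.11, 7.14 and 7.19 in wild type. Tbx1 null replicate 3 alone stood above the rest, and the log2 change was 0.08 (95% confidence interval -0.13 to 0.30, limma adjusted p = 0.854). Without that array it was -0.03. Fgf3, a ligand of ear induction and of the pharyngeal region, was at 7.36, 7.35 and 7.32 in Tbx1 null, against 7.42, 7.40 and 7.12 in wild type.

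Here wild type replicate 3 was the low one, and the Fgf3 change was 0.03 (95% confidence interval -0.16 to 0.21, limma adjusted p = 0.957). Without that array it was -0.07. Whether the change of Fgf15 differs from those of Fgf4 and Fgf3 was not tested. The measured protein-coding genes that flank the cluster were named for their position after the data were seen. Ano1, a chloride channel, had a log2 change of 0.18 and Ccnd1, the cyclin D1 gene, of 0.10 (limma adjusted p = 0.634 and 0.723). Fadd, a death receptor adaptor, had 0.01 and LTO1 had -0.004. The signals of Fgf4 and Fgf3 exceeded those of 95.8% and 96.8% of the 1027 olfactory receptor genes, sensory genes used as a stand-in for background, so they are dim and their changes may be understated. The corresponding share was 98.5% for Fgf9 and between 98.9% and 100% for the other ligands.

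Fgf8, the ligand of arch ectoderm and endoderm that sustains jaw mesenchyme, showed no difference between genotypes beyond array spread. Its log2 levels were 10.09, 10.08 and 10.08 in Tbx1 null, against 10.12, 10.01 and 10.17 in wild type. The Tbx1 null arrays lay inside the range of the wild-type arrays. The log2 change was -0.02 (SE 0.05, 95% confidence interval -0.14 to 0.10, limma adjusted p = 0.957), and the interval reaches from 1.1-fold lower to 1.07-fold higher. Larger changes of the whole arch's Fgf8 signal lie outside it, while a change limited to part of the tissue could not be seen in these samples.

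Fgf17 and Fgf18 belong to the same subfamily as Fgf8. Fgf17 was at 7.84, 7.88 and 7.79 in Tbx1 null, against 8.003, 7.92 and 7.75 in wild type, a log2 change of -0.05 (95% confidence interval -0.21 to 0.11, limma adjusted p = 0.873), and -0.03 without Tbx1 null replicate 3. Fgf18, known for its part in skeletal growth, was at 8.78, 8.74 and 8.70 in Tbx1 null, against 8.64, 8.65 and 8.36 in wild type. All Fgf18 arrays of Tbx1 null were higher, but wild type replicate 3 lay well below its 2 companions.

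The log2 change of Fgf18 was 0.19 (SE 0.08, 95% confidence interval -0.001 to 0.38, 1.14-fold higher, limma adjusted p = 0.53). Without wild type replicate 3 it was 0.09. Fgf9, an epithelial ligand that signals to mesenchyme, was at 7.82, 7.75 and 7.59 in Tbx1 null, against 7.71, 7.74 and 7.67 in wild type. The wild-type arrays lay inside the wider range of the Tbx1 null arrays, and the change was 0.01 (95% confidence interval -0.14 to 0.16, limma adjusted p = 0.974). Without Tbx1 null replicate 3, the lowest of the 6, it was 0.07, and centred on array medians -0.003.

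**Figure D3:**
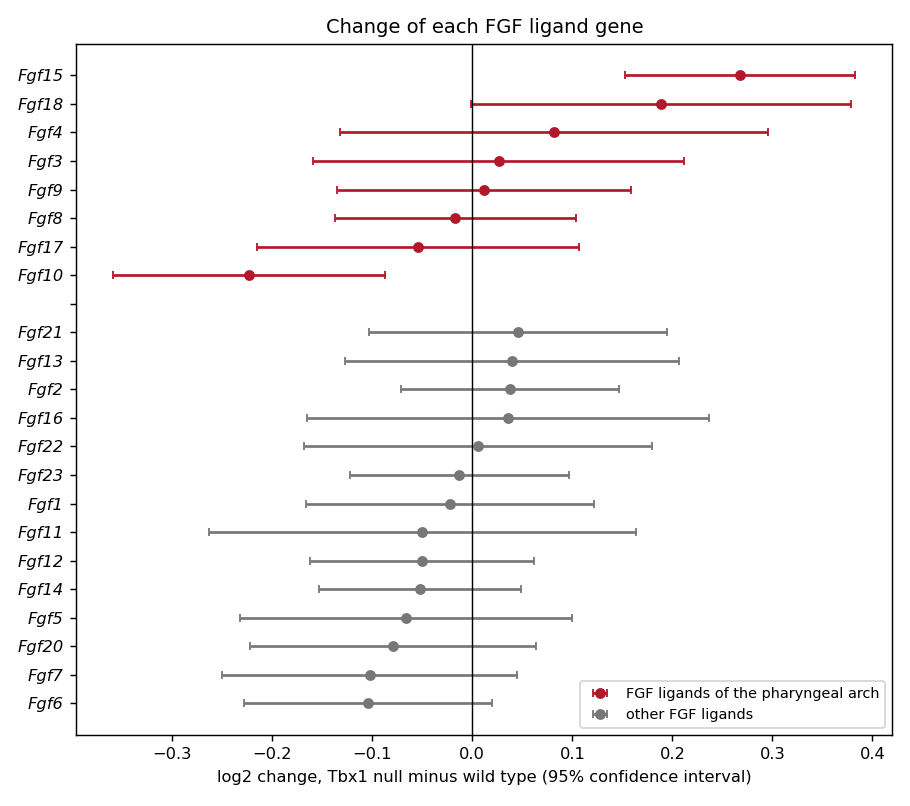
Log2 change (Tbx1 null minus wild type) with its 95% confidence interval for the 8 FGF ligands of the arch (red) and the 14 other FGF ligand genes (grey). The intervals of Fgf15 and Fgf10 lie to either side of 0, that of Fgf18 just reaches 0, and the others span it.

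The 14 other FGF ligand genes, given as the rest of the family, were all measured. None passed an adjusted or an unadjusted limma p of 0.05, which 0.16% and 9.44% of all genes passed. None had arrays without overlap, against 15.4% of all genes. Whether 0 of 14 differs from these shares was not tested. The log2 changes of the 14 ran from -0.10 to 0.05 with a median of -0.04. Fgf7, a ligand of the same receptor form as Fgf10, had a change of -0.10 (95% confidence interval -0.25 to 0.04). Fgf6 and Fgf20 had changes of -0.10 and -0.08. Signals of Fgf6, Fgf7 and Fgf20 exceeded those of only 76.7%, 78.3% and 92.2% of the olfactory receptor genes. They are dimmer than Fgf3 and Fgf4, and several others of the 14 are too. A lack of change in such genes may reflect signal near background.

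Receptors and their partners were next compared. Of 20 measured genes none passed the adjusted threshold, and at an unadjusted limma p under 0.05 there was 1 higher, Fgfrl1, and 1 lower, Fgfbp1 (10% against 9.44% of all genes). Fgfrl1, a receptor-like protein without a kinase domain, had a log2 change of 0.19 (10.96, 11.001 and 10.92 in Tbx1 null, against 10.61, 10.86 and 10.83 in wild type). Fgfbp1, a secreted carrier of FGFs, had -0.20 (6.54, 6.69 and 6.61 in Tbx1 null, against 6.83, 6.80 and 6.82 in wild type). Their adjusted p-values were 0.437 and 0.233 by limma. Fgfr2, the receptor gene whose epithelial form binds FGF10, stood at 11.33, 11.24 and 11.24 in Tbx1 null, against 11.10, 11.14 and 11.22 in wild type, with a change of 0.12 (95% confidence interval -0.002 to 0.23). Fgfr1, the receptor of the mesenchyme, had a change of 0.07 and Fgfr3 of 0.05. The receptor Fgfr4, which binds FGF15 together with the co-receptor Klb, had -0.04, and Klb had 0.004. Signals of Fgfbp1 and Klb exceeded those of only 90.7% and 84.4% of the olfactory receptor genes, so both are dim and their changes may be understated. Flrt2, a membrane protein of the FLRT family, had 0.21 with overlapping arrays.

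Heparan sulfate genes, which make or carry the sugar chains that FGFs need for receptor binding, gave 2 of 19 at an unadjusted limma p under 0.05 (10.5%), near the 9.44% of all genes. Ext1, an enzyme that extends the chain, had a change of 0.14 (adjusted p = 0.35), and Gpc4, a glypican core protein, had -0.35 with overlapping arrays (adjusted p = 0.475). The glypicans Gpc3 and Gpc2 had 0.11 and 0.12. The list's median was 0.02.

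Downstream of the receptors, 2 of 12 ERK response and feedback genes lay lower at an unadjusted limma p under 0.05 and 0 lay higher (16.7% against 9.44% of all genes). Etv1, an ETS-family factor, was at 10.31, 10.28 and 10.31 in Tbx1 null, against 10.49, 10.44 and 10.49 in wild type, a log2 change of -0.18 (limma adjusted p = 0.207). Dusp6, a phosphatase of ERK, was at 12.40, 12.37 and 12.38 in Tbx1 null, against 12.62, 12.55 and 12.51 in wild type, also -0.18 (limma adjusted p = 0.264). Both were lower on every Tbx1 null array. Spry4, a feedback inhibitor, had -0.14, also without overlap, and the phosphatase gene Dusp4 had -0.25 with overlap (limma adjusted p = 0.57 and 0.601). The ETS factors Etv4 and Etv5 had -0.02 and 0.08 and the inhibitors Spry1 and Spry2 each had 0.03, so 6 of 12 lay below 0 and its median was -0.003.

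Genes of the jaw mesenchyme and ectoderm that depend on epithelial FGF8 in mice did not share a direction. With an unadjusted limma p under 0.05, 2 of 9 measured lay higher and 1 lay lower (33.3%, against 9.44% of all genes), with a median of 0.02 and none past the adjusted threshold. Pitx1, a homeobox gene of the first arch, had a log2 change of 0.33 (adjusted p = 0.0962). Lhx8, a LIM-homeodomain gene of the oral mesenchyme, had 0.88 with wide spread, at 10.81, 10.67 and 9.76 in Tbx1 null, against 8.84, 9.78 and 9.96 in wild type (limma adjusted p = 0.468). Gsc, the goosecoid homeobox gene, had -0.22 (adjusted p = 0.263). Pax9, a paired-box gene of pouch endoderm and tooth-forming mesenchyme, had -0.50 with overlapping arrays (adjusted p = 0.53). Barx1, a homeobox gene of the proximal mesenchyme, had 0.02, and its wild-type arrays ran from 11.90 to 12.77.

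**Figure D4:**
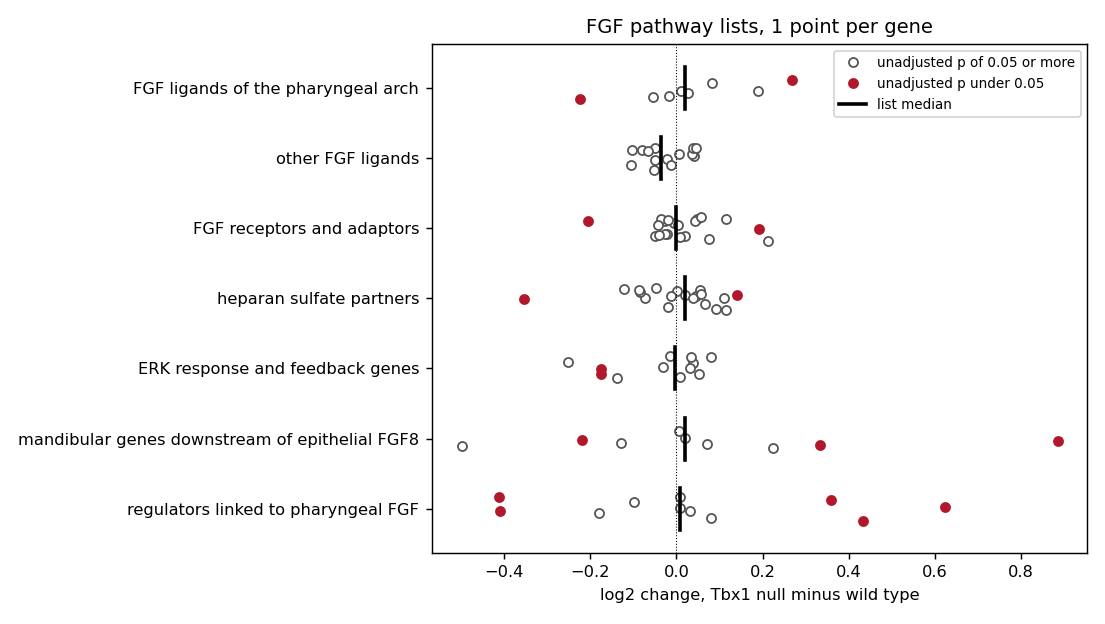
Log2 change (Tbx1 null minus wild type) of each measured gene in 7 FGF pathway lists, 1 point per gene, filled where the unadjusted limma p is under 0.05; the black bar is the list median. Medians lie between -0.04 and 0.02 in all 7 lists, and filled points lie on both sides of 0 in every list but the other FGF ligands, which have none, and the ERK response genes, whose 2 are lower.

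Among transcription factors and signals linked to pharyngeal FGF expression, 3 of 11 measured lay higher and 2 lay lower where the unadjusted limma p was under 0.05 (45.5%, against 9.44% of all genes), with none past the adjusted threshold. The T-box genes Tbx3 and Tbx2 had log2 changes of 0.43 and 0.62 (adjusted p = 0.0648 and 0.224), and Isl1 had 0.36. The forkhead gene Foxc1 had -0.41 and the homeobox gene Gbx2, a pharyngeal gene that is also a neural and otic marker, had -0.41, both with overlapping arrays (adjusted p = 0.327 and 0.482). The list's median was 0.01.

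Each ligand's change was next followed across 14 or 15 other settings. The replicate block, the level filters, the intensity trend with robust estimation and the probe-set settings cannot alter a ligand's log2 change here. They bear only on its p-value, so the direction could differ only under the remaining settings. Fgf10 stayed lower in 15 of 15, with log2 changes between -0.25 and -0.17 and adjusted p-values of 0.0919 to 0.514 by limma. Fgf15 stayed higher in all 14 that kept the gene, between 0.23 and 0.29. Both stayed at an unadjusted p under 0.05 in each of these, including the fit without Tbx1 null replicate 3, where Fgf15 had 0.23 and Fgf10 -0.18. Fgf18 stayed higher in 15 of 15, between 0.09 and 0.24, with an unadjusted p under 0.05 in 3. The other 5 ligands each changed sign in at least 1 setting.

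**Figure D5:**
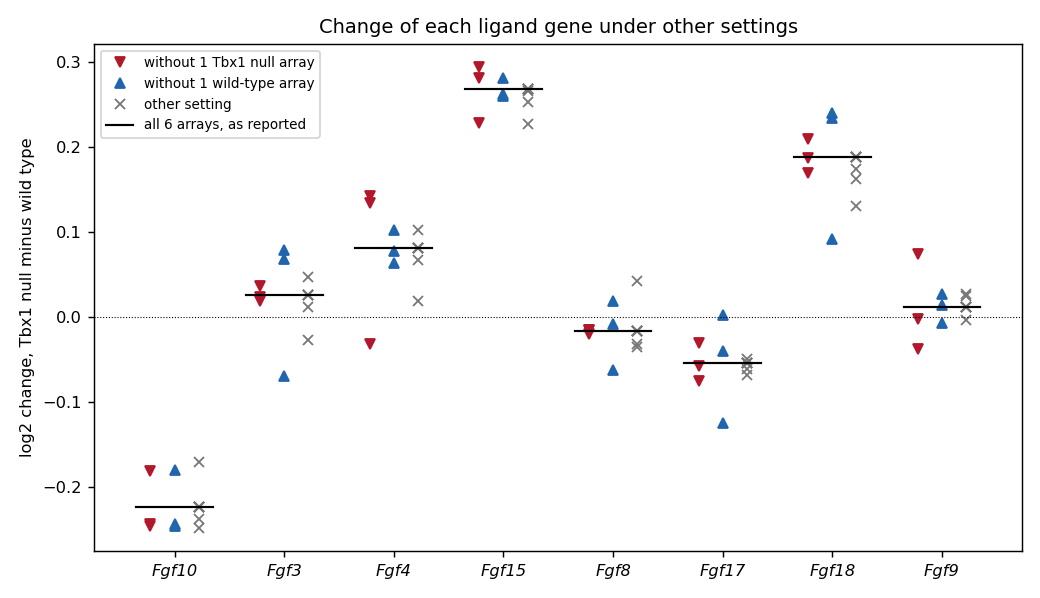
Log2 change (Tbx1 null minus wild type) of each FGF ligand with all 6 arrays (black line), without 1 Tbx1 null array (red), without 1 wild-type array (blue) and under other settings (grey crosses). Fgf15 and Fgf18 stay above 0 and Fgf10 below it, and the points of each of the other 5 ligands lie on both sides of 0.

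Among the ligands themselves, wild type replicate 3 was the lowest of its genotype for 5 of 8 and the highest for the other 3, and Tbx1 null replicate 3 was also the lowest for 5 of 8. The SD within a genotype ran from 0.006 for Fgf8 in Tbx1 null to 0.20 for Fgf4 in Tbx1 null. Across the 6 arrays the genes most like Fgf10 by Pearson correlation were Imp3 and Nolc1 (0.996 and 0.995), and those most like Fgf15 were Col2a1 and Nr2c2 (0.994 and 0.992). The nearest of Fgf18 were Cyp26b1 and Slc5a8 (0.990 and 0.988), and of Fgf8 Olfr868 and Gpr165 (0.989 and 0.985). For Fgf3 they were Sec14l5 and Slc25a45, for Fgf4 Gm9917 and Stk10, for Fgf9 D730005E14Rik and Klrb1f, and for Fgf17 Vwa5b1 and Krtap5-3, with values of 0.985 to 0.999. Over only 6 arrays between 23 and 203 genes correlated above 0.95 with a given ligand, and all these points share the arrays and their normalisation, so the values describe likeness on these arrays only.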

How the data were processed

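Each of 6 samples was run on 1 Affymetrix Mouse Gene ST array from 300 ng of total RNA, per the labels' protocols. The deposited values are log2 levels, 1 per probe set and array, which the authors obtained by RMA; the submitters' processing notes name Affymetrix Expression Console 1.1. Any filter and the genome build: not given in the sources used here. Because RMA equalises the arrays, a shift of nearly all genes would be hidden. Of 35556 probe sets, 21789 had 1 gene symbol, and the brightest one per gene left 19938 genes. The test was limma 3.58.1 (R 4.3.3, lmFit, then eBayes), two-sided and with no covariate, with Benjamini-Hochberg adjustment over all genes. The code was also run on data simulated from the fit's own variance model. Those data held no array or pool effects, so that run says nothing of such effects. None of 15 pairs of arrays were copies. Named are the 8 ligands, Tbx1, list members past the adjusted threshold and the 2 genes nearest each ligand by correlation. Some members among the 4 lowest p-values of a list are named too, but not all of them. No member of the primitive erythroid or endothelial lists is named. Some others were named for their role after their values were seen. Members and lists were chosen with earlier results of these data known. Of the listed genes, 10 entries had no probe set of 1 symbol and are not analysed here. Alternatives were other normalisations, filters, variance models, array weights, a replicate block, every probe set as a feature, and each array left out.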

Additional observations from a re-analysis of the deposited data

How the results depend on the processing

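No ligand passed the adjusted threshold except with array weights, where 1 did (Fgf15, log2 change 0.23). The count of ligands at an unadjusted p under 0.05 was 2 to 3 with an array left out and 1 without genes below the median level, a filter that removes 5 of the 8 ligands, Fgf15 among them. The ligands' median was between -0.001 and 0.05 with an array left out. The count of 32 genes past the adjusted threshold ran from 3 to 20 with an array left out (3 when Tbx1 null replicate 1 or 2 or wild type replicate 2 was dropped, 10 for Tbx1 null replicate 3, 13 and 20 for wild type replicates 1 and 3). It was 96 with an intensity trend and robust estimation, 334 with array weights and 4 with every probe set as a feature; the cause was not tested. Sign changes were of values near 0: Fgf3 -0.027 and Fgf8 0.043 with array weights, and Fgf9 -0.0028 centred on array medians. With an array left out Fgf3 ran from -0.069 to 0.079, Fgf4 from -0.032 to 0.143, Fgf8 from -0.062 to 0.0195, Fgf9 from -0.038 to 0.075 and Fgf17 from -0.125 to 0.0023. With the replicate number as a block 6 genes passed. Arrays of equal number did not all deviate together (correlations of -0.05, 0.26 and 0.15, against -0.37 to 0.25 for unequal numbers). With 3 arrays per genotype these values cannot tell whether equal numbers share a source. Among the 8 ligands, dim signal limits Fgf3 and Fgf4 most.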
